A study of Mus musculus with 5 samples.

Results

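Club cells, the secretory cells of the bronchiolar airway lining, were examined in mouse lungs that carried breast cancer metastases. They were chosen as the cells to which the authors of the deposited cell table gave the cell type Club, within the class of ciliated and Club cells. There were 121 such cells among 22118 annotated cells in 5 libraries, or 0.547%, and 23852 cells were listed in all once doublets and unassigned cells were counted. Club cells ranked 18 of 21 annotated types by size, 1 place above ciliated cells with 93 cells.

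Single-cell RNA sequencing with a 5′ 10x Genomics kit was run on whole dissociated lungs of female BALB/c mice. From the age of 6 weeks, mice were injected intravenously, 3 times a week for 3 weeks, with control medium (CM) or with medium in which pieces of 4T1 mammary tumors had been kept, called tumor-secreted factors (TSF). All groups then received 25000 4T1 cells intravenously, a mouse mammary carcinoma line, here expressing the surface reporter CD90.1, and lungs were taken at day 11, when the labels give an age of 10 weeks, or at day 16, at 11 weeks. The 4 groups were thus CM and TSF at each of these days, and no group was free of cancer cells. The lung cells of 3 mice were pooled before a library was made, so animals cannot be told apart, and the cancer cells reached the lung through the blood rather than from a primary tumor.

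In the mouse lung, Club cells line the bronchioles between ciliated cells. They secrete proteins of the secretoglobin family, of which Scgb1a1 is the most abundant, and they hold cytochrome P450 enzymes such as Cyp2f2 that oxidise inhaled chemicals. They also act as progenitors that renew themselves and give rise to ciliated cells after airway injury. Alveolar type 1 (ACT1) and alveolar type 2 (ACT2) cells, which carry out gas exchange and make surfactant, line the airspaces beyond the bronchioles and are the other epithelial cells of these libraries.

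The label could not be checked against marker genes within the Club cells, because counts per gene and cell were not analysed here. The 3 defining markers, Scgb1a1, Scgb3a2 and Cyp2f2, were all among the 1000 highly variable genes on which the authors clustered the cells. Scgb1a1 (ENSMUSG00000024653) lies on the minus strand of chromosome 19 at 9083636 to 9087958, and Cyp2f2 (ENSMUSG00000052974) lies on the plus strand of chromosome 7 at 27119909 to 27133660, both on GRCm38. Of a list of 25 Club genes, 12 were highly variable, or 48.0%, beside 4.21% of all genes listed. The variable members included the secretoglobin Scgb3a1, the carbonyl reductase Cbr2, the retinaldehyde dehydrogenase Aldh1a1 and the airway secretory protein Bpifa1. The mucin gene Muc5b was not among the variable genes. Lists of ciliated, ACT2 and ACT1 genes held larger shares of variable genes than the Club list, while a list of basal and goblet genes held none. A share above that of all genes was thus not particular to the Club list, and it does not check the label.

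With 1 pool of mice per group there was no test between groups. TSF at day 11 had libraries a and b, whose counts of cells per class differed by less than sampling noise (chi-square test, p = 0.445), unlike every other pair, and they were averaged as 1 sample. Intervals are exact 95% intervals for counting error, and they leave out differences between mice. Annotated cells numbered 3567 to 5113 per library, and their median depth was 2109 to 2645 unique molecular identifiers (UMIs, counted RNA molecules) per cell. Of the Club barcodes, 5 also occurred in another library, and none was called Club in both.

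Club cells were rare in every library, and the counting intervals of their share overlapped between all groups. CM at day 11 held 22 Club cells among 3738 annotated cells, or 0.589% (interval 0.369 to 0.890%). TSF at day 11 held 19 of 5113 in library a, or 0.372% (interval 0.224 to 0.580%), and 29 of 4804 in library b, or 0.604% (interval 0.405 to 0.866%). CM at day 16 held 26 of 3567, or 0.729% (interval 0.477 to 1.07%), and TSF at day 16 held 25 of 4896, or 0.511% (interval 0.331 to 0.753%). The highest share was that of CM at day 16 and the lowest that of TSF library a, and the intervals of these libraries overlapped. A share here is one of captured and annotated cells, and the number of Club cells in a lung was not measured.

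**Figure D1:**
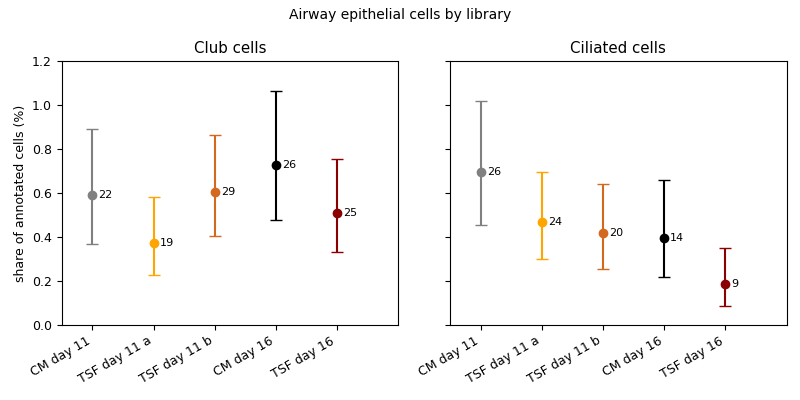
Share of annotated cells (%, y axis) that were Club cells (left) or ciliated cells (right) in each of the 5 libraries (x axis), with points for the share, bars for the exact 95% interval and the number of cells printed beside each point. Club shares lie between 0.372 and 0.729% with overlapping intervals, while ciliated shares run from 0.696% in CM at day 11 to 0.184% in TSF at day 16.

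The first comparison asked whether TSF given before the cancer cells went with another share of Club cells. At day 11 the mean of the TSF libraries was 0.488%, and the ratio of TSF to CM was 0.829 (interval 0.487 to 1.43). This ratio depended on which TSF library was used, being 0.631 with library a alone and 1.03 with library b alone. Library b held 1.62 times the Club share of library a (interval 0.880 to 3.07), so these libraries of 1 group lay farther apart than the groups did.

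At day 16 the ratio of TSF to CM was 0.701 (interval 0.388 to 1.26). The denominators differed, since granulocytes made up much of the TSF library: 3471 of its 4896 annotated cells were not granulocytes, against 3353 of 3567 in CM. Among cells other than granulocytes the Club ratio was 0.929 (interval 0.515 to 1.67), and among non-immune cells it was 0.933. Among cells with at most 5% mitochondrial UMIs it was 0.441 (interval 0.188 to 0.986), from 11 Club cells in TSF and 18 in CM. The day 16 ratio thus lay below 1 for every set of cells counted, and among the values just given only the interval of 0.441 ended below 1.

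**Figure D2:**
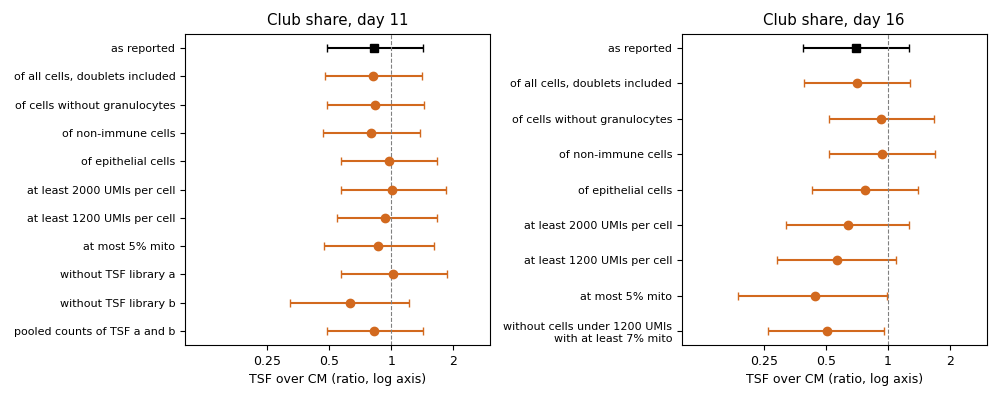
Ratio of the Club share in TSF to that in CM (x axis, log scale) at day 11 (left) and day 16 (right), as reported and under each alternative denominator, filter or choice of library, with bars for the exact 95% interval and a dashed line at 1. At day 11 the ratios lie between 0.631 and 1.03 and every interval spans 1. At day 16 they lie between 0.441 and 0.933, and the intervals of 0.441 and 0.504 end below 1. The value of 0.504 leaves out cells under 1200 UMIs with at least 7% mitochondrial UMIs, a filter chosen after the values were seen.

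Between day 11 and day 16 the intervals of the Club share of annotated cells overlapped as well. The ratio of day 16 to day 11 was 1.24 in CM (interval 0.675 to 2.29) and 1.05 after TSF (interval 0.623 to 1.75). With epithelial cells alone as the denominator, the ratio was 2.05 in CM (interval 1.12 to 3.80) and 1.63 after TSF (interval 0.976 to 2.73). Club cells made up 4.89% of the epithelial cells of CM at day 11, 3.53 and 6.02% of those of TSF libraries a and b, and 10.0 and 7.76% of those of CM and TSF on day 16.

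The most common epithelial cells were ACT2 cells, the surfactant-producing cells, which numbered 310, 395 and 345 in CM and TSF libraries a and b at day 11 and 136 and 194 in CM and TSF at day 16. For every 100 ACT2 cells there were 7.10 Club cells in CM at day 11, 4.81 and 8.41 in TSF libraries a and b, 19.1 in CM at day 16 and 12.9 in TSF at day 16. Both libraries of day 16 lay above all 3 of day 11. Of annotated cells, ACT2 cells were 8.29% in CM and 7.73 and 7.18% in TSF libraries a and b at day 11. At day 16 they were 3.81% in CM and 3.96% in TSF. The Club share was 0.589% in CM at day 11 and 0.729% at day 16, so a higher ratio to ACT2 cells need not mean more Club cells. In CM the odds of a Club against an ACT2 cell were 2.69 times higher at day 16 (interval 1.41 to 5.17), and 2.53 times higher among cells with at least 2000 UMIs (interval 1.25 to 5.20). After TSF they were 1.99 times higher (interval 1.14 to 3.38), but 1.40 among cells with at least 2000 UMIs (interval 0.735 to 2.57). The value was 2.67 against library a alone (interval 1.38 to 5.27) and 1.53 against library b alone (interval 0.834 to 2.80). Against ACT1 cells, the thin cells of gas exchange, the odds ratio was 1.31 in CM (interval 0.657 to 2.62) and 1.05 after TSF (interval 0.581 to 1.86).

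Within the airway class, Club cells were set against the ciliated cells that neighbour them in the bronchiole. Ciliated cells numbered 26 in CM at day 11, 24 and 20 in TSF libraries a and b, 14 in CM at day 16 and 9 in TSF at day 16. Club cells formed 45.8% of the 48 airway cells of CM at day 11 (interval 31.4 to 60.8%), and 44.2 and 59.2% in TSF libraries a and b. At day 16 they formed 65.0% of 40 airway cells in CM (interval 48.3 to 79.4%) and 73.5% of 34 in TSF (interval 55.6 to 87.1%). The Club part of the airway was thus above that of every day 11 library in both libraries of day 16.

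Most intervals of the odds ratios spanned 1. The odds of Club against ciliated cells in TSF over CM were 1.29 at day 11 (interval 0.604 to 2.76) and 1.49 at day 16 (interval 0.494 to 4.66). At day 11 the value was 1.70 with TSF library b alone and 0.936 with library a alone. From day 11 to day 16 the odds ratio was 2.17 in CM (interval 0.853 to 5.71) and 2.53 after TSF (interval 1.01 to 6.86), and the latter was 1.97 among cells with at least 2000 UMIs (interval 0.715 to 5.86).

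Club cells yielded many more RNA molecules than most cells of the lung. Their median was 8667 UMIs per cell in CM at day 11, 15990 and 22351 in TSF libraries a and b, 10014.5 in CM at day 16 and 7447 in TSF at day 16. In every library Club cells had the highest median of the 21 types after the cancer cells, whose medians lay between 20760 and 31050. Ciliated cells of the same libraries had medians of 5829, 5179.5, 5470, 9549.5 and 5089 UMIs in the same order of libraries, below the Club median each time. Although they were 0.547% of annotated cells, Club cells supplied 2.12% of the UMIs of CM at day 11, 2.01 and 3.55% in TSF libraries a and b, 2.55% in CM at day 16 and 1.24% in TSF at day 16.

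The spread among Club cells was wide. Single cells ran from 808 to 36985 UMIs, a 45.8-fold range. The range was 18.0-fold among ciliated, 16.0-fold among ACT1 and 34.1-fold among ACT2 cells. The upper quartile was 4.66 times the lower in Club cells, against 1.77 in ciliated, 3.36 in ACT1 and 1.86 in ACT2 cells. At least 20000 UMIs were found in 39 of 121 Club cells, or 32.2%, compared with 1.08% of ciliated cells, 0.0725% of ACT2 cells and no ACT1 cell. These deep Club cells numbered 4 in CM and 7 and 17 in TSF libraries a and b at day 11, and 7 in CM and 4 in TSF at day 16. At the other end, 19 Club cells (15.7%) had under 2000 UMIs, of which 8 came from TSF at day 16.

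The number of genes detected per Club cell followed depth only in part. Median genes were 1765.5 in CM at day 11, 2999 and 2947 in TSF libraries a and b, 2708 in CM at day 16 and 1814 in TSF at day 16. Per 1000 UMIs, Club cells gave medians of 215, 156, 139, 236 and 261 genes in that order, while ciliated cells gave 445, 443, 441, 375 and 450. Because this ratio falls with depth, cells of 4000 to 8000 UMIs were also compared. There, 17 Club cells had a median of 1742 genes (quartiles 1359 and 1947), 52 ciliated cells had 2502 (quartiles 2292 and 2678), 168 ACT1 cells had 2213 and 778 ACT2 cells had 1614.5. At this depth the RNA of Club and ACT2 cells, both secretory, was spread over fewer genes than that of ciliated and ACT1 cells.

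Median depth of Club cells was higher in TSF than in CM at day 11 and lower at day 16. At day 11 the median UMIs of TSF Club cells were 1.84 times those of CM in library a and 2.58 times in library b, and median genes were 1.70 and 1.67 times. At day 16 the ratio was 0.744 for UMIs and 0.670 for genes. With at least 2000 UMIs per cell the UMI ratios were 1.44 and 2.09 at day 11 and 1.03 at day 16, and the gene ratios were 1.21 in both libraries and 0.724. Over all annotated cells the median UMIs were 2223 in CM and 2109 and 2163 in TSF libraries a and b at day 11, and 2645 in CM and 2301.5 in TSF at day 16. The median of all annotated cells thus showed no such rise at day 11. Cancer cells, the only deeper type, did, with medians of 20760 in CM, from 6 cells, and 31050 and 30698 in TSF libraries a and b. Their medians at day 16 were 27679 in CM and 26615 in TSF. Ciliated cells were lower in TSF at day 11, at 5179.5 and 5470 UMIs against 5829 in CM. The Club ratios rest on 1 pool of mice a group and were not tested.

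The share of mitochondrial UMIs in Club cells was higher at day 16 than at day 11 in both arms. The median was 2.21% in CM at day 11 (quartiles 1.33 and 4.59%), 3.20% in TSF library a and 2.40% in library b, 4.42% in CM at day 16 (quartiles 2.90 and 5.55%) and 5.85% in TSF at day 16 (quartiles 3.16 and 8.46%). The quartile ranges overlapped between days. All annotated cells had medians between 2.18 and 2.51% in the 5 libraries, with no such step. In TSF at day 16, however, 30.2% of all annotated cells had under 1% mitochondrial UMIs, against 7.36 to 12.4% in the other libraries. Among Club cells with at least 2000 UMIs the medians were 2.07, 3.20, 2.34, 4.45 and 3.53% in the same order, so the step in the TSF arm was smaller there. Ciliated cells had medians of 3.29, 3.29, 5.11, 5.11 and 3.84% in that order, so in CM they too were higher at day 16. The medians of ACT2 cells were 3.37, 3.47, 3.87, 3.88 and 3.93%, and those of ACT1 cells 2.08, 2.11, 2.37, 2.31 and 2.34%. A higher median at day 16 in CM was thus not particular to Club cells.

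A group of Club cells with few UMIs and a high mitochondrial share was mostly found in the TSF library of day 16. The limits that define it were chosen after the values were seen, so its counts and intervals are a description only. Cells under 1200 UMIs with at least 7% mitochondrial UMIs made up 7 of its 25 Club cells, or 28.0% (interval 12.1 to 49.4%). There was 1 such Club cell in CM at day 11, and there were 0 of 19 and 0 of 29 in TSF libraries a and b and 0 of 26 in CM at day 16, which allows up to 15.8, 10.3 and 11.5% by a limit of 3 counts of the total. The 7 cells had 826 to 1058 UMIs, 440 to 560 genes and 7.75 to 9.49% mitochondrial UMIs, which is close to the limits of 800 UMIs and 10% at which the authors removed cells. Among all annotated cells of that library the same limits took in 38 of 4896, or 0.776%, and between 0.450 and 0.813% in the other libraries. In TSF at day 16 they took in 3 of 94 ACT1 cells, 1 of 194 ACT2 cells and 0 of 9 ciliated cells.

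**Figure D3:**
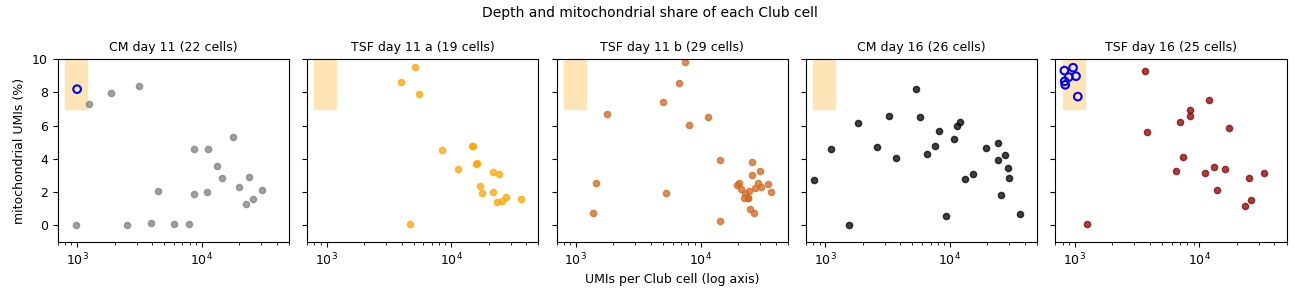
Mitochondrial UMIs (%, y axis) against UMIs per cell (x axis, log scale) for each Club cell of the 5 libraries, 1 panel a library; the shaded box spans under 1200 UMIs with at least 7% mitochondrial UMIs, and open circles mark the Club cells inside it. TSF at day 16 has 7 Club cells in the box, CM at day 11 has 1, and the other libraries have none. The limits of the box were chosen after the values were seen.

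The comparisons of day 16 were repeated without cells of this kind, a choice made after the values were seen. At day 16 the limits took in 7 Club cells of TSF and 0 of the 26 of CM. The choice thus set the direction in which the TSF values of share, depth and mitochondrial share moved, and these values are a description only. The ratio of the Club share in TSF to that in CM was then 0.504 (interval 0.260 to 0.956), from 18 against 26 Club cells. The remaining Club cells of TSF at day 16 had a median of 11512.5 UMIs, 1983 genes and 3.45% mitochondrial UMIs. Their UMIs were 1.15 times those of CM at day 16, so the direction of the depth difference turned, while genes stayed lower at 0.732 times and the mitochondrial share went from 1.32 to 0.781 times that of CM. The odds of Club against ciliated cells in TSF over CM were 1.08 without them. From day 11 to day 16 after TSF, the odds against ACT2 cells were 1.43 (interval 0.764 to 2.57).

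The authors' finer clusters placed the 121 Club cells in 3 groups. Fine cluster 125 held 77 cells, all called Club. Fine cluster 130 mixed 41 Club with 25 ciliated cells, and fine cluster 129 held 68 ciliated cells and 3 Club cells. The share of Club cells that lay in fine cluster 125 was 68.2% in CM at day 11, 57.9 and 58.6% in TSF libraries a and b, 69.2% in CM at day 16 and 64.0% in TSF at day 16, which is a range narrower than the counting error of any of these libraries. Fine clusters 130 and 129, both shared with ciliated cells, thus held 33.9% and 2.48% of all Club cells, and no sub-cluster held both types.

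A second round of clustering by the authors split the Club cells into 7 sub-clusters, named here by the authors' labels. Since these were made from gene expression of the same cells, their sizes and depths are given as a description. A.22 held 53 cells and A.30 held 42, A.46 held 10, A.68 held 6, A.65 and A.72 held 4 each and A.80 held 2. Of the cells of A.30, 34 lay in fine cluster 130 and 8 in fine cluster 125, and those 8 included all 7 of the low-UMI, high-mitochondrial cells of TSF at day 16. The remaining cell of the 8 came from TSF library a and had 24268 UMIs.

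The main sub-clusters differed in how many genes they showed at a like depth. Between 8000 and 20000 UMIs, 13 cells of A.22 had a median of 1945 genes (range 1318 to 2999) and 14 cells of A.30 had 3217.5 (range 2696 to 3881). Between 20000 and 40000 UMIs, 19 cells of A.22 had a median of 2919 genes and 18 cells of A.30 had 3604. A.22 thus held cells in which fewer genes took up the RNA, and A.30 cells in which it was spread over more. The 4 cells of A.65 had a median of 3573 genes at 9324.5 UMIs, and the 4 of A.72 had 2967.5 genes at 7854 UMIs.

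**Figure D4:**
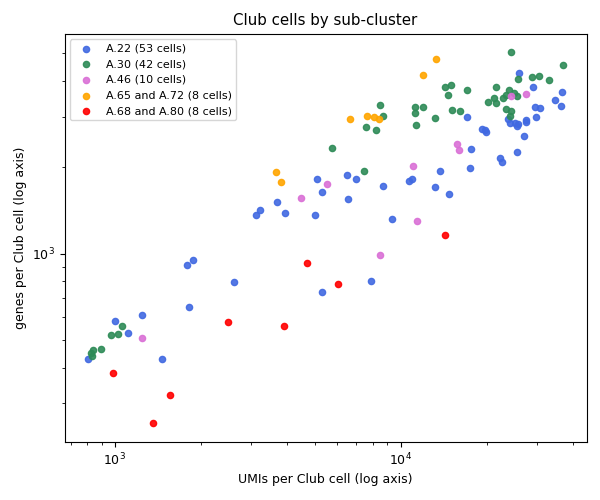
Genes detected per Club cell (y axis, log scale) against UMIs per cell (x axis, log scale) for the 121 Club cells, coloured by the authors' sub-cluster. At 8000 to 20000 UMIs the cells of A.30 (median 3217.5 genes) lie above those of A.22 (median 1945 genes), and the 8 cells of A.68 and A.80 have 256 to 1161 genes at 987 to 14280 UMIs.

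A.68 and A.80 together held 8 Club cells with almost no mitochondrial RNA. Their mitochondrial share ran from 0 to 0.735%, with a median of 0.0568%, against a median of 3.53% in the other 113 Club cells. They had 987 to 14280 UMIs but only 256 to 1161 genes. These sub-clusters held 4 cells of CM at day 11, 1 and 2 of TSF libraries a and b, 1 of CM at day 16 and 0 of 25 of TSF at day 16, which allows up to 12.0%. Like cells also lay outside them. A.46 held a cell of TSF at day 16 with 0.0803% mitochondrial UMIs and 508 genes at 1246 UMIs. A.22 held a cell of CM at day 11 with 0.0379% and 801 genes at 7907 UMIs. The authors left mitochondrial genes out before they chose the variable genes used for clustering. Under 1% mitochondrial UMIs were found in 14 Club cells (11.6%), in 68 ACT1 cells (14.8%), in 20 ACT2 cells (1.45%) and in no ciliated cell.

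The sub-clusters were spread over the libraries, with A.22 the most uneven of the larger ones. A.22 made up 10 of 22 Club cells in CM at day 11, 7 of 19 and 13 of 29 in TSF libraries a and b, 17 of 26 in CM at day 16 and 6 of 25 in TSF at day 16. At day 16 this was 65.4% in CM (interval 44.3 to 82.8%) and 24.0% in TSF (interval 9.36 to 45.1%). Without the cells of low UMIs and high mitochondrial share the TSF value was 33.3% (interval 13.3 to 59.0%). The part of A.30 in fine cluster 130 gave 6, 6, 10, 7 and 5 cells in CM at day 11, TSF libraries a and b, CM at day 16 and TSF at day 16, which is close to level.

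**Figure D5:**
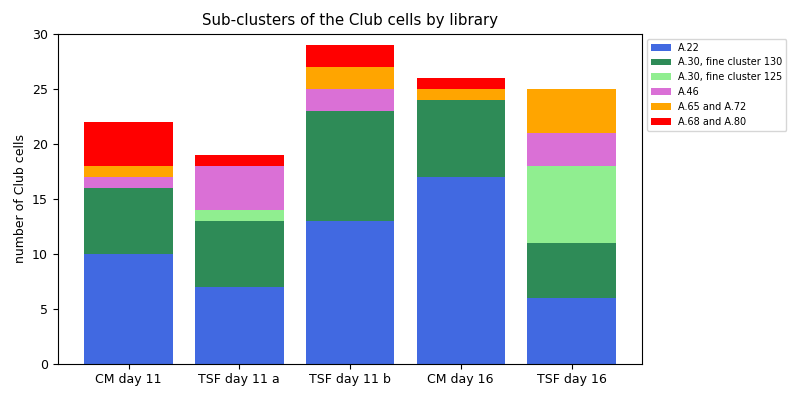
Number of Club cells (y axis) in each library (x axis), stacked by the authors' sub-cluster, with A.30 split by its fine cluster. CM at day 16 has 17 cells of A.22 and TSF at day 16 has 6, and 7 of the 8 cells of A.30 in fine cluster 125 come from TSF at day 16.

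Club genes were last looked for in the 4T1 cells of day 16, for which values per gene and library were deposited, to see whether Club transcripts appeared outside Club cells. Cancer cells came from TSF (139 cells) and CM (29 cells). Scgb1a1, the main secretory protein of Club cells, had a UMI in 0 of 139 TSF cancer cells, and in 1 of 29 CM cancer cells, or 3.45% (interval 0.0873 to 17.8%). Scgb3a2, a secretoglobin of the smaller airways, and Cyp2f2, the P450 enzyme, had no UMI in either library. By a limit of 3 counts, 0 of 139 allows up to 2.16% and 0 of 29 up to 10.3% of cancer cells with a UMI left after the authors' correction for free RNA, which is no limit on cells that express the gene. The defining Club markers were thus at or near 0 in cancer cells of both libraries in these corrected counts.

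Of the 25 Club genes, 11 (44.0%) had a UMI in any of these cancer cells, where 62.0% of all genes did, and 4 (16.0%) reached 10% of the cells in TSF or CM, where 42.9% of all genes did. Nupr1, a stress-induced chromatin protein, was seen in 122 TSF cells (87.8%) and 17 CM cells (58.6%), at a mean of 4.35 and 2.58 CP10k (UMIs per 10000 UMIs of a cell). Gsto1, a glutathione transferase, was seen in 56.8% of TSF and 69.0% of CM cells, Ldhb, a lactate dehydrogenase subunit, in 35.3 and 17.2%, and Cbr2, the carbonyl reductase, in 25.9 and 10.3%. The Club list summed to 5.41 CP10k in TSF and 3.42 in CM, most of it from Nupr1, with a median of 0 in both. With 1 library a group these differences have no replicate check.

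Lists for the neighbouring epithelial cells were read in the same cancer cells. Of all genes, 62.0% had a UMI there and 42.9% reached 10% of the cells in TSF or CM. Among these lists only that of ACT1 genes lay above the former share, and all of them lay below the latter. Of 10 ciliated genes, 6 had a UMI and 1 was in at least 10% of cells, the tubulin gene Tubb4b. Of 10 ACT2 genes, 5 had a UMI and 3 passed 10%, namely the lipid transporter gene Abca3, the transcription factor gene Etv5 and the secreted lipocalin gene Lcn2. All 8 ACT1 genes had a UMI, and Rtkn2 and Emp2 passed 10%. Of 8 basal and goblet genes, 3 had a UMI, and the basal keratin gene Krt14 alone passed 10%. It had a UMI in 15.8% of TSF cells (interval 10.2 to 23.0%) and in 0 of 29 CM cells, which allows up to 10.3%.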

How the data were processed

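Per the study's methods, the authors mapped reads of 5′ 10x Genomics libraries with Cell Ranger to mm10, to which the CD90.1 sequence was added, imported counts into Seurat 4.1.0, and corrected them for free RNA with a customised SoupX that multiplied the estimated contamination by 2. They removed cells over 10% mitochondrial UMIs, under 800 UMIs or under 200 genes, clustered on 1000 variable genes without mitochondrial, ribosomal and cell-cycle genes, named clusters by hand, and marked multiplets. The deposited cell table gives UMI and gene counts per cell, the percent of mitochondrial UMIs, clusters, types and embedding coordinates (a score without unit). The authors' table of day 16 cancer cells gives, per gene, how many and what percent of cells had a UMI, and the mean CP10k; its fold changes, p-values and q-values, and a table of gene set enrichment, were not used. The cell table held 2 further libraries that were not used here.

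Doublets and unassigned cells were left out of shares. Shares have exact Clopper-Pearson intervals at 95%, and ratios and odds ratios have exact conditional intervals, from pooled counts where TSF libraries a and b were averaged. A count of 0 allows 3 counts of the total. With 1 sample a group no test between groups was made. UMIs per cell were corrected values and were not thinned. The code for intervals of shares and of ratios of 2 shares was tested on simulated data, and that for odds ratios was not. Members of the marker lists could be named, with values for the 3 Club markers and for members that reached 10% of cancer cells in either library. Members of the marker lists were not all specific to 1 cell type. The Club cells, lists and alternatives were chosen with earlier results of these data known. Gene positions came from GENCODE M21, on GRCm38. Intervals came from scipy 1.17.1 and tables from pandas 2.3.3 with numpy 2.4.6, in Python 3.11.15, and plots from matplotlib 3.10.9.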

Additional observations from a re-analysis of the deposited data

Results flagged for a closer look

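Median depth of Club cells in TSF relative to CM lay on opposite sides of 1 on the 2 days. The ratio of median UMIs was 1.84 and 2.58 in TSF libraries a and b at day 11 and 0.744 at day 16. The ratio of median genes per Club cell was 1.70 and 1.67 at day 11 and 0.670 at day 16. The difference between days was not tested, since each group had 1 sample. Without cells under 1200 UMIs with at least 7% mitochondrial UMIs, a filter chosen after the values were seen, the day 16 ratios were 1.15 for UMIs and 0.732 for genes.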

How the results depend on the processing

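Of the values recomputed under another setting, 97 moved by less than their counting error or spread and 4 moved further. The 97 include values that could not move, such as shares given with another interval and medians of libraries where a filter removed no Club cell. They also include the CM ratio of day 16 to day 11, which was 2.05 among epithelial cells (interval 1.12 to 3.80) in place of 1.24. With at most 5% mitochondrial UMIs, the ratio of the Club share at day 16 to day 11 after TSF was 0.577 in place of 1.05, and the Club cells of TSF at day 16 had a median of 13759 UMIs in place of 7447 and 3.13% mitochondrial UMIs in place of 5.85%. The fall of the mitochondrial median was fixed by that filter, which removed the cells above 5%. Of the Club genes, 11 had any UMI in cancer cells and 4 reached 10% of cells. Without TSF library a or b of day 11, the ratio of TSF to CM at day 11 ranged from 0.631 to 1.03, the ratio of day 16 to day 11 after TSF from 0.846 to 1.37, and the odds of Club against ciliated cells at day 11 from 0.936 to 1.70. No paired analysis was possible because the groups share fewer than 2 replicate labels and no comparison between groups was tested. With 19 to 29 Club cells a library, a share is known only within the intervals given, and Club cells lost in dissociation or in the filters on depth and mitochondrial share are not counted.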
